A study of Mus musculus with 4 samples.

Results

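The proteasome subunit genes are the genes whose symbol begins with Psma, Psmb, Psmc, Psmd, Psme, Psmf or Psmg in the authors' deposited table, which pairs array probe sets with names. They were 49 of 20802 named genes and 102 of 45101 probe sets. One of the 49, Psmc3ip, encodes a meiotic recombination factor rather than a proteasome component, so 48 proteasome genes with 100 probe sets are described. Each gene is represented by its probe set with the highest mean over the 4 arrays.

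Cerebral cortex RNA of female mice of the inbred C57BL/6J strain, aged 90 days, was labelled and measured on 4 arrays. The groups were titled nicotine (2 arrays, numbered 1 and 2), whose dams drank a nicotine solution from conception, and titled saccharin (2 arrays, numbered 1 and 2), whose dams drank the sweetener alone. The drinking solution of both groups was stopped at weaning on day 21, no genetic change is stated, and each pool held RNA of 4 animals. Titles and source names contradict each other on all 4 arrays; differences here follow the titles (nicotine minus saccharin), and every sign turns if the source names are right. The labels give 5 pools per group, while 2 arrays per group were analysed. They leave unstated whether the arrays of a group came from different pools. P-values therefore cover only the spread between arrays, which may be technical. The design asks whether developmental nicotine leaves a difference in adult cortical expression after a nicotine-free interval.

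The proteasome is the protease that degrades proteins tagged with ubiquitin. Its barrel, the 20S core, is built of alpha rings, which gate the entrance, and beta rings, which carry the catalytic sites. The 19S regulatory particle sits on the barrel: its base holds the ATPases that unfold and thread substrates, and its lid removes the ubiquitin chain. In neurons this system turns over synaptic proteins and shapes plasticity.

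Proteasome genes are known targets of the transcription factor Nfe2l1, which raises them together when proteasome activity falls and binds the antioxidant response element, whose core is TGACNNNGC. Promoter windows of 250 bases before the RefSeq start (assembly GRCm38.p6, first listed start) were found for 40 of the 48 genes. The core was present on either strand in 5 of these 40 windows (12.5%), those of Psmb5, Psmb6, Psmc6, Psmd9 and Psmd12, and in 10.1% of all 27025 windows of the same length. The CCAAT box, spelled CCAAT, was present in 14 of the 40 (35.0%) and in 34.5% of all windows. The GC box, spelled GGGCGG, was present in 22 (55.0%) and in 32.9% of all. Of the 5 core matches, that of Psmd9 overlaps a GC box on the other strand. No window was found for Psmb7, a further constitutive catalytic gene. The windows of the constitutive Psmb3 and Psmb4 and of the inducible Psmb9 and Psmb10 hold no core. The windows of Psmb5 and Psmb6, which encode constitutive catalytic subunits, and of Psmd9 hold the core within 50 bases of the start. That of Psmb8, the inducible counterpart of Psmb5, holds none. These 4 windows are shown 5′ to 3′ with the core in capitals; a match of letters is a description and not a binding site.
Psmb5, chr14:54617996-54618245, minus strand: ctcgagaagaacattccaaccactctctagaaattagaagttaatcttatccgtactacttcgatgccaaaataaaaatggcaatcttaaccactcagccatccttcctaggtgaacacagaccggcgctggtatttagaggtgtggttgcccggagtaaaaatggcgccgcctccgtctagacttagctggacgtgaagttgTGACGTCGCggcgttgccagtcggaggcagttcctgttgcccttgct
Psmb6, chr11:70525107-70525356, plus strand: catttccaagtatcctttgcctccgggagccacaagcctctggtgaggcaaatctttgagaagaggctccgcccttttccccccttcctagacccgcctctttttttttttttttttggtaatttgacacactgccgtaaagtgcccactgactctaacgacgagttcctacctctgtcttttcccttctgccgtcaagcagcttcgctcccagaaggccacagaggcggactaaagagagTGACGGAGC
Psmd9, chr5:123227940-123228189, plus strand: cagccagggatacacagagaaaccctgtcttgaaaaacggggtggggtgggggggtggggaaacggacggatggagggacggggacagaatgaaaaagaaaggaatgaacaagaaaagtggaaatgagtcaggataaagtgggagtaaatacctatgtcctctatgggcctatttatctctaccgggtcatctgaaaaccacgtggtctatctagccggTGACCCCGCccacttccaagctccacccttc
Psmb8, chr17:34197945-34198194, plus strand: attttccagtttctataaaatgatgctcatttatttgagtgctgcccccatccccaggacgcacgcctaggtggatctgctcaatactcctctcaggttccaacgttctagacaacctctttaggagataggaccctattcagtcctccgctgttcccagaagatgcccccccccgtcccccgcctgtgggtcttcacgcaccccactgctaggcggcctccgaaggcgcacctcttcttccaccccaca
With the base before the start counted as -1, the core spans -47 to -39 in Psmb5, -9 to -1 in Psmb6 and -31 to -23 in Psmd9.

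Of the 48 genes, 45 (93.8%) reached the median level of the probe sets as a whole (4.04 on the log2 scale) on their brightest probe set, as did 58.8% of all 20802 genes chosen the same way. Of the 100 proteasome probe sets 27 lay below that level. The 3 below it were Psma8, the testis form of an alpha subunit, Psmb11, the catalytic subunit of the thymic cortex, and the interferon-inducible Psmb9. Array medians lay between 3.88 and 4.09, and from 25.0% to 25.3% of the values on an array were its lowest one, so the lowest values carry no order. The neuronal marker Snap25 read 16.15 and 16.25 under the nicotine title and 16.18 and 16.20 under the saccharin title, and Tbr1, a cortical projection neuron factor, 11.95 and 11.75 against 12.19 and 11.54. Of 5 leukocyte markers 2 reached the median level. Ptprc read 6.62 and 5.06 in titled nicotine and 6.18 and 5.34 in titled saccharin, and Cd8a read 5.45 and 5.57 against 5.45 and 5.39. The others, Cd3e and Itgax among them, were below 2.2, near the lowest value, on all 4 arrays. All 8 oligodendrocyte markers were higher in titled nicotine (background 38.8%), with a median difference of 0.13, and the choroid plexus gene Ttr read 12.01 and 13.96 in titled nicotine and 11.84 and 10.75 in titled saccharin. Their part in the values of the proteasome genes was not tested. Because this is bulk tissue, fewer cells of a type and less RNA per cell cannot be told apart. The 3′ minus 5′ value of Actb, which tracks RNA quality, was 1.25 and 1.73 on titled nicotine 2 and titled saccharin 2, against 2.39 and 2.38 on titled nicotine 1 and titled saccharin 1. That of Gapdh lay nearer 0, at -0.135 and 0.00704 on titled nicotine 2 and titled saccharin 2, against 0.0923 and 0.132 on the arrays numbered 1.

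Between the exposures no proteasome gene passed the test, and the differences were small. Over the 45 genes that reached the median level they ranged from -0.18 for Psmg1 to 0.15 for Psmb7 on the log2 scale, the larger being 1.13-fold. None of the 45 exceeded 0.2 in either direction, a size exceeded by 17.0% of the 12234 genes of the array at that level. The members' median size of difference was 0.057, and that over all genes at this level was 0.084. These backgrounds were not matched for expression. The median level of the 45 on an array was 11.92 to 12.43, against 9.32 to 9.55 for the 12234 genes. The part of this gap in the shares was not tested. In limma, 0 of the 48 had an adjusted p under 0.05 (background 0.00222% of probe sets), the adjusted p was 1 for each, and none of the 45 had an unadjusted p under 0.05 (background 1.63% of genes at that level). None of the 100 probe sets did either (background 0.769% of probe sets), the smallest being 0.107, for a further Psmc6 probe set. With array number as a term, which takes the gap between the numbers out of the error, 5 of the 45 had an unadjusted p under 0.05 (11.1%, background 8.84%). These were Psma1, Psmd5, Psmd7 and Psme2, higher in titled nicotine, and Psmg1, lower, and no member probe set passed adjustment in that fit (smallest limma adjusted p = 0.458). The authors' deposited table called none of them either, with a smallest adjusted p of 0.716 for a dim Psmd9 probe set. Its fold changes, whose direction is unknown, had the opposite sign to the difference by title for 39 of the 48 genes and the same sign for 8. The same held for the array as a whole, with a correlation of -0.871 over all 45101 probe sets.

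Members did not move to one side. The median difference over the 48 genes was -0.010, and over the 45 at the median level or above it was -0.0096, beside -0.029 over the 12234 genes. Centring each array on its median adds 0.054 to every difference and turned the median over the 48 positive, at 0.043. The median over the 12234 genes turned positive too, at 0.025. In both numbers the array titled nicotine was higher for 9 of the 45 genes (20.0%, background 16.8%) and lower for 13 (28.9%, background 30.6%). The remaining 23 had opposite signs, or no difference, in the 2 numbers. Groups did not overlap in 3 of the 45 (6.67%, background 9.91%), all lower in titled nicotine (background of lower genes 7.2%), and no gene was higher without overlap (background 2.71%). These counts use the brightest probe set of each gene only, and further probe sets were separated in either direction.

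**Figure D1:**
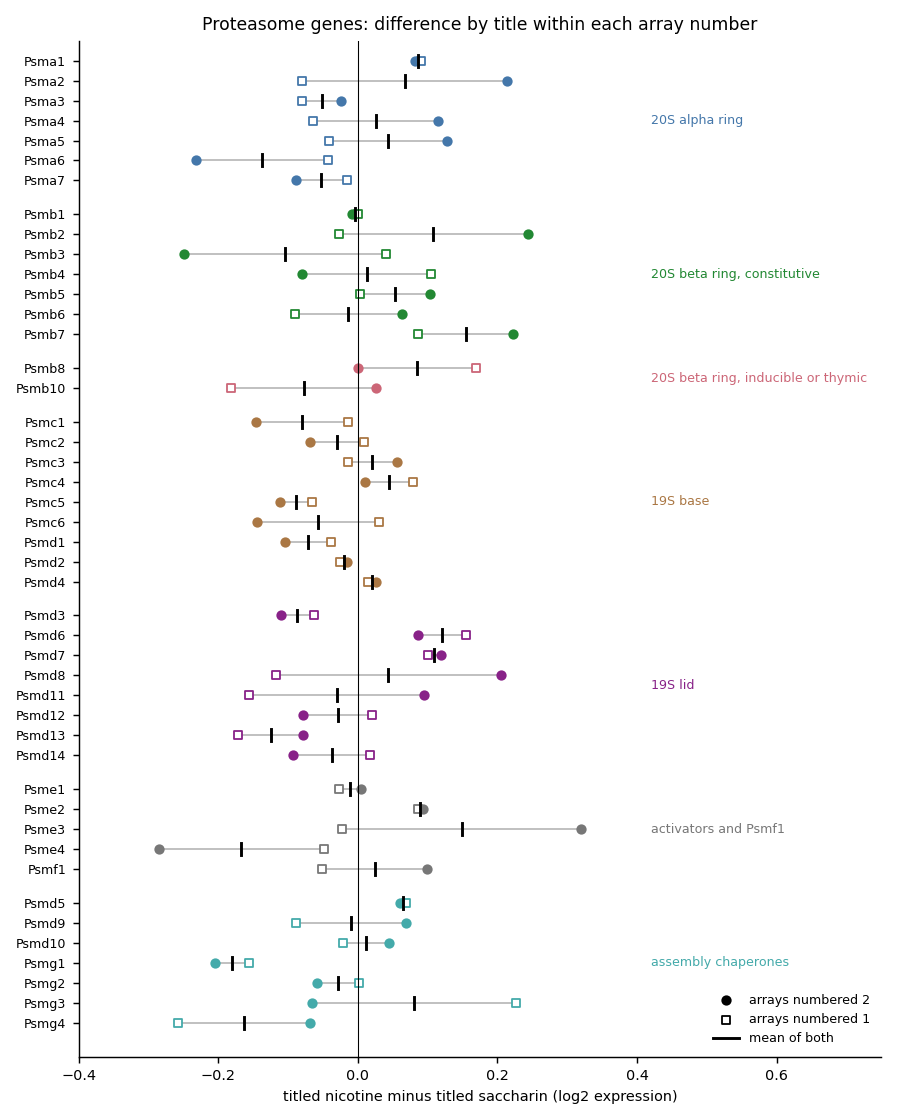
Titled nicotine minus titled saccharin (log2 expression) for the 45 proteasome genes that reached the median level, grouped by subcomplex. Circles are arrays numbered 2, squares arrays numbered 1 and bars the mean of both; all bars lie between -0.18 and 0.15.

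The 3 genes without overlap were Psmg1, Psme4 and Psma3. Psmg1, an assembly chaperone of the alpha ring, read 9.51 and 9.36 under the nicotine title and 9.66 and 9.57 under the saccharin title. Its difference was -0.18 (SE 0.0793, n = 2 per group, limma adjusted p = 1), -0.21 within number 2 and -0.16 within number 1. Both arrays titled nicotine were lower than both titled saccharin, but the gap between the groups was narrower than the gap within either. Psme4, the large nuclear activator that caps the barrel, read 10.70 and 10.61 in titled nicotine and 10.74 and 10.89 in titled saccharin. It differed by -0.17 (SE 0.0798, limma adjusted p = 1). Its 5 probe sets that reached the median level ran from -0.31 to 0.29, so the gene had no single direction. Psma3, an alpha ring subunit, read 13.56 and 13.62 in titled nicotine and 13.64 on both arrays titled saccharin. It differed by -0.052 (SE 0.0284, limma adjusted p = 1), which became 0.0017 with centred arrays.

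In the alpha ring, whose N-terminal tails close the gate, the median difference over the 7 genes that reached the median level was 0.026. With Psma8, which stood between 2.11 and 2.17, near the lowest value, it was -0.0014. Psma1 differed by 0.086, with 0.082 within number 2 and 0.090 within number 1, against an SE of 0.174 that holds the gap between the numbers. Psma6 differed by -0.14, Psma7 by -0.053, Psma2 by 0.067, Psma5 by 0.043 and Psma4 by 0.026, and in each of them the groups overlapped.

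The constitutive beta ring had a median difference of 0.013 over 7 genes. Psmb2, a structural subunit, read 10.37 and 10.78 in titled nicotine and 10.40 and 10.53 in titled saccharin. It differed by 0.11, which came from number 2 (0.24) rather than number 1 (-0.027). Psmb3, also structural, read 12.75 and 12.43 against 12.71 and 12.68, a difference of -0.10 that was -0.25 within number 2 and 0.040 within number 1. In both genes the groups overlapped and the array titled nicotine 2 was the extreme one. Psmb1 was flat, at 12.85 and 12.88 in titled nicotine and 12.85 and 12.89 in titled saccharin. Psmb4 differed by 0.013.

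Of the beta subunits, Psmb6 cuts the substrate after acidic, Psmb7 after basic and Psmb5 after hydrophobic residues. Psmb5 read 12.77 and 12.99 in titled nicotine and 12.77 and 12.89 in titled saccharin (difference 0.053, SE 0.117). Psmb6 read 12.34 and 12.59 against 12.43 and 12.53 (difference -0.014, SE 0.127). Psmb7 read 10.65 and 13.44 against 10.56 and 13.22 (difference 0.15, SE 1.79). For all 3 the groups overlapped, and the SE of Psmb7 holds a gap of more than 2 log2 units between the numbers.

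The inducible subunits Psmb9, Psmb10 and Psmb8 replace Psmb6, Psmb7 and Psmb5 in the immunoproteasome, which cells make under interferon and which favours antigenic peptides. Psmb8 read 6.63 and 6.33 in titled nicotine and 6.46 and 6.33 in titled saccharin (difference 0.085, SE 0.153). Psmb9 read 3.70 and 3.71 against 4.32 and 3.53 (difference -0.22, SE 0.366), with titled saccharin 1 alone above the rest. Psmb10 read 10.44 and 10.25 against 10.62 and 10.22 (difference -0.077, SE 0.204). None passed in limma (adjusted p = 1), and their groups overlapped. Psmb11 was 2.29 on every array. Psmb8 and Psmb9 lie among the antigen transporter genes Tap1 and Tap2 on chromosome 17 of assembly GRCm38.p6, and Tap1 was below 2.2, near the lowest value, on all 4 arrays.

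**Figure D2:**
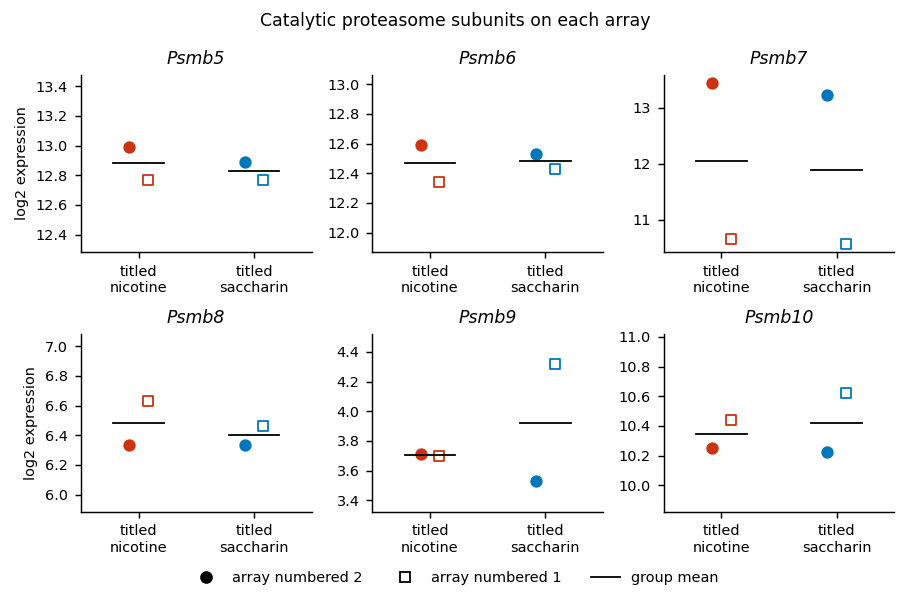
Log2 expression of the constitutive catalytic subunit genes Psmb5, Psmb6 and Psmb7 (top) and the inducible Psmb8, Psmb9 and Psmb10 (bottom), each panel with its own axis. Points are single arrays, circles numbered 2 and squares numbered 1, and bars are group means of 2 arrays; Psmb7 stands near 13.3 on the arrays numbered 2 and near 10.6 on those numbered 1 under both titles.

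In the 19S base the median difference was -0.030 over 9 genes, and 0.024 with centred arrays, beside -0.029 and 0.025 over the 12234 genes. Among the ATPases, Psmc2 read 13.88 and 13.85 in titled nicotine and 13.87 and 13.92 in titled saccharin (difference -0.030, SE 0.0256). Psmc5 read 13.25 and 13.42 against 13.31 and 13.53 (difference -0.089, SE 0.127). Both had overlapping groups, although Psmc5 was lower in titled nicotine within each number. Psmc1 differed by -0.080, Psmc6 by -0.057, Psmc4 by 0.045 and Psmc3 by 0.021. The 3 Psmc6 probe sets that reached the median level ran from -0.057 to 0.21. The one at 0.21 read 9.92 and 10.05 in titled nicotine and 9.84 and 9.71 in titled saccharin, without overlap. Of the scaffold genes Psmd1 differed by -0.072 and Psmd2 by -0.020, and Psmd4, a ubiquitin receptor, by 0.021.

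The 19S lid had a median difference of -0.030 over 8 genes, and 0.024 with centred arrays, again beside -0.029 and 0.025 over the 12234 genes. Psmd14, the enzyme that cleaves the ubiquitin chain from the substrate, read 12.67 and 12.64 in titled nicotine and 12.65 and 12.73 in titled saccharin (difference -0.038, SE 0.0411). Psmd12 read 12.25 and 12.18 against 12.22 and 12.26 (difference -0.029, SE 0.0334). Neither was separated by title. Psmd7, the inactive partner of Psmd14, differed by 0.11 and Psmd6 by 0.12, both higher in titled nicotine within each number, while Psmd13 (-0.12) and Psmd3 (-0.087) were lower within each. Psmd8 differed by 0.044 and Psmd11 by -0.030, with opposite signs in the 2 numbers.

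Among activators, Psme1 and Psme2 encode the interferon-inducible cap, Psme3 a nuclear cap, and Psmf1 a binding protein of the barrel first described as an inhibitor. Psme2 read 10.30 and 10.15 in titled nicotine and 10.22 and 10.05 in titled saccharin. It differed by 0.089 (SE 0.106), with 0.093 within number 2 and 0.086 within number 1. Psme1, its partner, read 10.68 and 10.41 against 10.70 and 10.41, a difference of -0.011. The pair thus had overlapping groups and differences of either sign. Psme3 differed by 0.15 and Psmf1 by 0.024.

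The assembly chaperones had a median difference of -0.0096 over 7 genes. Psmd10, which escorts an ATPase into the base, read 9.60 and 9.63 in titled nicotine and 9.62 and 9.58 in titled saccharin. It differed by 0.012 (SE 0.0220). Psmd5 differed by 0.065, Psmd9 by -0.0096, Psmg2 by -0.029, Psmg3 by 0.081 and Psmg4 by -0.16. Psmc3ip, the gene that shares only the prefix, read 5.95 and 5.74 against 5.79 and 5.77, a difference of 0.064.

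Genes that work with the proteasome but lack the prefix were measured for comparison, and none passed in limma. Of 13 partners 11 were measured, with a median difference of -0.0037, and 3 had groups without overlap (27.3%, background 9.91%). Fbxo7, which binds Psmf1, read 8.87 and 8.88 in titled nicotine and 8.80 and 8.78 in titled saccharin (difference 0.082, SE 0.0104, adjusted p = 1). Ecpas, which holds the 2 particles together, read 9.89 on both arrays titled nicotine and 10.06 and 10.18 in titled saccharin, a difference of -0.23 that was 0.63 as a mean of all its probe sets. The deubiquitinase gene Uchl5 read 12.01 and 12.05 against 11.98 and 11.88 (0.097). In these 3 genes the groups did not overlap, 2 higher and 1 lower. Of 16 genes of ubiquitin, its activation and delivery 15 were measured, with a median of 0.020. The shuttle Ubqln1 read 13.34 and 13.40 in titled nicotine and 13.40 and 13.39 in titled saccharin (-0.027), and the activating enzyme Uba6 read 9.86 and 8.95 against 9.79 and 9.48 (-0.23). Both had overlapping groups. The 11 regulators of proteasome genes had a median of -0.063, with Nfe2l1 itself at -0.085. Ngly1, whose product activates Nfe2l1, read 10.54 and 10.61 in titled nicotine and 10.60 and 10.67 in titled saccharin (-0.063), and Keap1, an inhibitor of the related Nfe2l2, read 9.57 and 9.20 against 9.72 and 9.57 (-0.26). Their groups overlapped, while those of Mafk, a dimer partner of these factors at 0.27, did not. Mafk read 7.69 and 7.70 in titled nicotine and 7.46 and 7.39 in titled saccharin (SE 0.0307, limma adjusted p = 1). Of 16 antigen processing and interferon response genes 15 were measured, with a median of 0.044. B2m, the light chain of class I molecules, read 12.75 and 12.65 in titled nicotine and 12.72 and 12.23 in titled saccharin (0.23). The heavy chain H2-K1 read 8.88 and 8.41 against 9.03 and 8.74 (-0.24), and the interferon-induced Gbp2 read 6.39 and 6.04 against 7.00 and 6.31 (-0.44). The groups of all 3 overlapped. Each of the 4 lists held genes with differences of either sign.

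The numbers 1 and 2 in the titles are not explained, and the shift from one number to the other correlated at 0.804 between the titles across probe sets. Number was therefore compared as a factor of its own, and both the proteasome genes and the array as a whole differed more between the numbers than between the exposures. The median size of difference between the numbers was 0.22 over the 45 genes and 0.30 over the 12234 genes. The 2 numbers did not overlap in 35 of the 45 genes (77.8%, background 74.5%), 19 higher and 16 lower in number 2. By direction the background was 19.6% higher and 55.0% lower, against 42.2% and 35.6% of the members. As for the exposures, the background was not matched for expression, and the members were brighter. The 3′ minus 5′ values given above also differed by number, and their part in these differences was not tested. The median over the 48 genes was 0.017, while that over the 12234 genes was -0.18. Centring moves every such difference by -0.16 and put these medians at -0.14 and -0.34. In limma with title as a term, 0 members had an adjusted p under 0.05 (background 0% of probe sets), the smallest among their probe sets being 0.0848. At an unadjusted p under 0.05 there were 11 higher and 8 lower (24.4% and 17.8%, background 8.49% and 21.6%).

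Medians by subcomplex are given as descriptions. Differences between subcomplexes were not tested, and in all but the inducible beta group members had either sign. The base genes had a median of 0.19 and the constitutive beta genes of 0.17, and 7 of 9 and 5 of 7 were higher in number 2 (background 29.6%). With centred arrays these medians were 0.036 and 0.013. The lid had a median of 0.12, which turned to -0.033 with centred arrays. The inducible beta genes had a median of -0.25, with Psmb8 at -0.22, Psmb9 at -0.38 and Psmb10 at -0.29, while Psmb11 did not differ. Psmb9 lay below the median level and its numbers overlapped. Under the nicotine title it read 3.71 in number 2 and 3.70 in number 1. Of the assembly chaperones 6 of 7 were lower in number 2, with a median of -0.12. Of all genes at that level 69.5% were lower, with a median of -0.18, so the chaperone median was no lower than theirs. The inducible and chaperone medians kept that side with quantile normalization (-0.31 and -0.11). Centring moves every difference by -0.16, so it could only take them further down (-0.41 and -0.28). Of the 7 alpha ring genes that reached the median level, with a median of -0.0061, Psma1 was at -0.27 and Psma7 at 0.25. The activators and Psmf1 had a median of 0.029, which turned to -0.13 with centred arrays. Of 10 microglial markers 6 were lower in number 2, with a median of -0.090, a share and a median not beyond those of all genes.

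**Figure D3:**
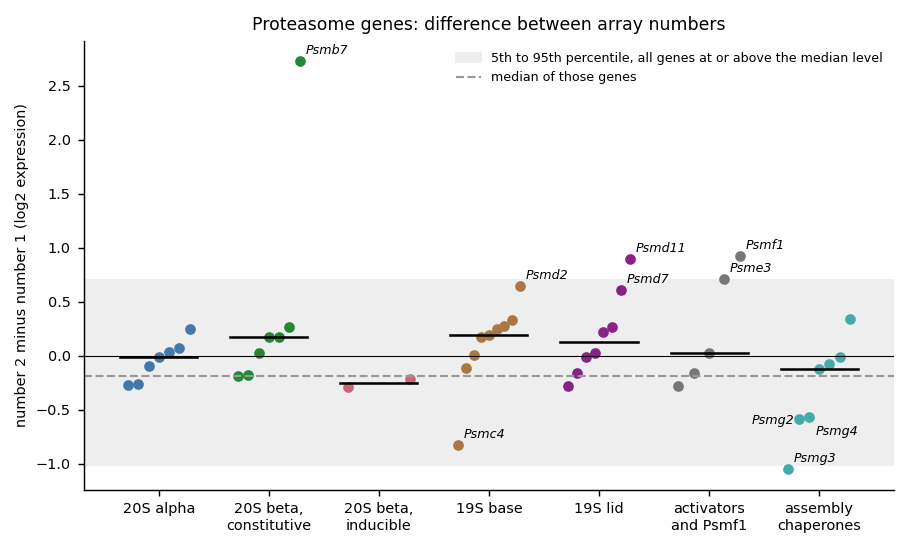
Number 2 minus number 1 (log2 expression) for the 45 proteasome genes that reached the median level, by subcomplex, with the subcomplex median as a bar. The grey band runs from the 5th to the 95th percentile of all genes at that level (-1.01 to 0.70) and the dashed line is their median; Psmb7, Psmd11, Psmf1 and Psme3 lie above the band and Psmg3 below it.

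On the brightest probe sets Psmb7 stood apart from the other members. It read 13.44 on titled nicotine 2 and 13.22 on titled saccharin 2, against 10.65 on titled nicotine 1 and 10.56 on titled saccharin 1. The difference of 2.73 (SE 0.0588, limma adjusted p = 0.139) is 6.62-fold and was 2.57 with centred arrays. Its sister catalytic genes Psmb5 and Psmb6 were at 0.17 and 0.18. Psmb7 has a single probe set on this array, so no second one bears on its value. A further probe set of Psme3 differed by more, at 3.41. Such sizes were also found outside the proteasome. Of the 12234 genes that reached the median level, 379 were more than 2-fold higher in number 2 and 631 more than 2-fold lower. Among the members Psmb7 was the 1 higher gene and Psmg3 the 1 lower gene of that size.

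After Psmb7, the next largest members on the brightest probe sets were 5 genes that were higher and 2 that were lower by more than 1.5-fold. Psmf1 read 9.97 and 9.87 in number 2, against 8.97 and 9.02 in number 1, a difference of 0.92. Psmd11, a lid subunit, read 12.61 and 12.52 against 11.59 and 11.75, a difference of 0.89. Psme3 read 10.47 and 10.15 against 9.59 and 9.61, a difference of 0.71. In all 3 both arrays of number 2 were the higher ones on the brightest probe set, whatever the title. Psmd2 read 12.57 and 12.59 against 11.92 and 11.95 (0.64, SE 0.0045), and Psmd7 read 11.84 and 11.72 against 11.22 and 11.12 (0.61, SE 0.0081). On the lower side Psmg3 read 8.14 and 8.20 in number 2, against 9.33 and 9.11 in number 1 (-1.05). The ATPase gene Psmc4 read 12.92 and 12.91 against 13.78 and 13.70 (-0.83). Including Psmb7, 13.3% of the members were higher and 4.44% lower by more than 1.5-fold, beside a background of 6.25% and 17.7%.

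Smaller shifts could be as even across titles as these. The SE of a number difference leaves out the gap between titles, so it reflects how alike the shift was under both. It is not comparable with the exposure SE, which holds the gap between numbers. For Psma1 the exposure SE with array number as a term was also 0.0037. Psmd4 read 12.61 and 12.58 in number 2, against 12.27 and 12.25 in number 1 (0.34, SE 0.0052). Psmd5 read 10.00 and 9.94 against 9.66 and 9.59 (0.34, SE 0.0037). Psma7 read 12.34 and 12.43 against 12.13 and 12.15. In these 3 genes number 2 was higher without overlap. Psma1 read 12.77 and 12.69 in number 2, against 13.04 and 12.95 in number 1 (-0.27, SE 0.0037). Psmd6 read 13.27 and 13.18 against 13.58 and 13.43, Psme1 10.41 on both against 10.68 and 10.70, and Psmg2 9.93 and 9.99 against 10.54 on both. Here number 2 was lower without overlap. With centred arrays limma called 7 of the 45 (15.6%, background 25.8%), in a fit that gave all probe sets one common variance. Without the title term it called 6, Psmb7 (adjusted p = 0.0440), Psmd2 (0.0288) and Psmd4 (0.0447) higher, and Psmc4 (0.0458), Psme1 (0.0461) and Psmg2 (0.0480) lower. That is 6.67% of the 45 in each direction, beside a background of 1.57% higher and 2.53% lower. These calls are on the brightest probe sets. The other Psmc4 probe set that reached the median level was called higher in that fit (0.25, limma adjusted p = 0.0295), so Psmc4 had calls in both directions.

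The number difference depended on which probe set of a gene was read. Of the 48 genes 27 have more than 1 probe set and 20 have more than 1 that reached the median level. In 12 of these 20 the probe sets had opposite signs between the numbers, and in 9 they lay more than 0.5 apart. Over all 5331 genes with several probe sets at that level, 54.2% had opposite signs. Psmc4 was at -0.83 on its brightest probe set and at 0.25 on the other. Psme3 was at 0.71 and at 3.41, its second probe set reading 10.98 and 10.53 in number 2, against 7.06 and 7.61 in number 1. Psmd7 was at 0.61 and, on a dimmer probe set, at -0.61. The 3 Psmf1 probe sets at that level were at 0.92, -0.19 and 0.18, the last 2 with overlapping numbers. The 4 of Psmd11 ran from -0.017 to 1.15. Psmb3 was at -0.17 and 0.39 and Psmb4 at -0.19 and 0.26, while both probe sets of Psma7 and of Psmd4 were higher in number 2. Between the exposures the signs differed in 13 of the 20 genes, and in 55.3% of all 5331.

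**Figure D4:**
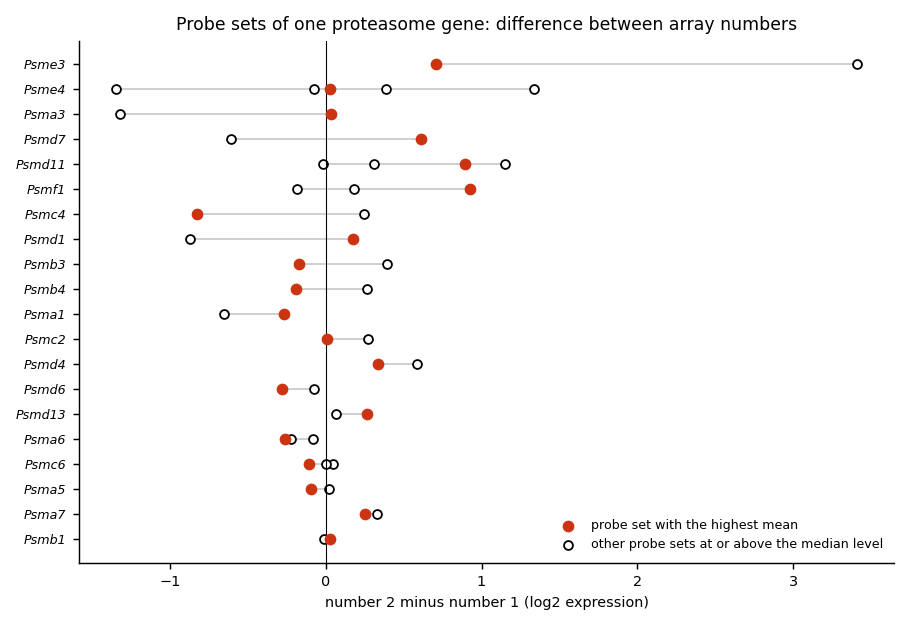
Number 2 minus number 1 (log2 expression) for every probe set that reached the median level in the 20 proteasome genes that have several, ordered by the gap between them. Red points are the probe sets with the highest mean and open points the others; Psme3 and Psme4 have the widest gaps, and 12 genes lie on both sides of 0.

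Dim further probe sets were, of the 73 proteasome probe sets that reached the median level, the only ones that differed by more than 1 between the exposures in either number. Of the 11 that lie between the median level and 8, a limit chosen after the values were seen, 5 were more than 1 lower on titled nicotine 2 than on titled saccharin 2 (background 8.79%). They belong to Psma1, Psma3, Psmd1 and, with a pair, to Psme4. The Psmd1 one read 6.82 and 4.63 in titled nicotine and 6.10 and 6.54 in titled saccharin. That of Psma3 read 6.74 and 4.63 against 6.88 and 6.36, and that of Psma1 6.89 and 5.81 against 7.25 and 7.02. In each of these 3, titled nicotine 2 was the lowest array. Of the Psme4 pair, 1 read 5.43 and 2.99 in titled nicotine and 4.55 and 4.30 in titled saccharin, with titled nicotine 2 lowest. The other read 5.72 and 5.13 against 5.06 and 6.42, with titled saccharin 1 lowest. At or above 8 such a gap was rare, in 0.668% of all probe sets and in 0 of 62 proteasome ones. The brighter probe sets of the same genes showed no such gap: Psmd1 read 12.29 and 12.43 in titled nicotine and 12.33 and 12.54 in titled saccharin. What these dim probe sets detect is not given in the sources used here.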

How the data were processed

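RNA of cortex pools was hybridised to Affymetrix arrays, per the labels' protocols, and 4 arrays were analysed. The deposited array values are taken as log2 expression, a scale read from the values; how the authors corrected background and normalized is not given in the sources used here. The authors' deposited table gives each probe set a log2 fold change, a raw and an adjusted p-value, and a score (the moderated statistic), per the file headers. The submitters' processing notes name limma; which group was subtracted is unknown.

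Groups follow the titles. limma 3.58.1 under R 4.3.3 (lmFit, eBayes) was run over all 45101 probe sets for both contrasts, with Benjamini-Hochberg adjustment, a threshold of 0.05 and no filter. The exposure fit has no block and the number fit has title as a term. With 4 arrays an exact permutation test could reach no p under 0.333. The fits were tested on simulated data that left out the array-wide shift between the numbers. That run therefore does not show how the exposure fit behaves with such a shift. Promoter sequences are RefSeq's.

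The members and lists were chosen with earlier results of these data known. Values on every array are given for the 2 genes per subcomplex with the smallest p in each contrast, the catalytic subunits, members without overlap between exposures and, per companion list, the 3 genes with the smallest p, of which 1 is not reported here. Psmf1, Psmd11, Psme3, Psmg3 and Psmc4 and the dim probe sets were singled out after their values were seen. Alternatives were quantile normalization, centring, a filter on dim probe sets, trend and robust variance, the number as a block or no title term, the mean of all probe sets, the authors' table and leaving out each array. Across probe sets the number shift correlated at 0.804 between the titles. Precision is limited by having 4 arrays.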

Additional observations from a re-analysis of the deposited data

How the results depend on the processing

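No member was called between the exposures under any alternative run. The exposure call of 1 probe set, outside the proteasome, became 0 with quantile normalization, centring, the filter, the trend model, the replicate block and gene means, 14 in the authors' deposited table, and 0 to 379 with 1 array left out (379 without titled nicotine 1, 277 without titled saccharin 1). With the replicate block, which array numbers alone do not show to be a pairing, the smallest limma adjusted p of a member probe set was 0.458. Between the numbers, 0 probe sets were called in the fit with title; there were 8847 with centring, 49 with the trend model, 1102 without the title term, and 989 to 3177 with 1 array left out (989 and 2621 on leaving out titled nicotine 1 and titled nicotine 2, 1098 and 3177 on leaving out titled saccharin 1 and titled saccharin 2). Members called between the numbers were 7 with centring, 6 without the title term and 1 to 3 with 1 array left out, and the members' median was -0.14 with centring. The centred number fit estimated infinite prior degrees of freedom, so all probe sets shared one variance. An array left alone is assumed to vary like the others. Sign changes are listed for the genes that the rule for named genes picked; among the other members Psmd9 and Psmd11 also changed sign between the exposures with centred arrays. The exposure difference changed sign with centred arrays in Psma3 (0.0017), Psma7 (0.001), Psma8 (0.025), Psmb1 (0.049), Psmb6 (0.04), Psmc2 (0.024), Psmd12 (0.025), Psmd14 (0.016), Psmd2 (0.033), Psme1 (0.042), Psmg2 (0.025), Ubqln1 (0.027). The exposure difference changed sign when all probe sets were averaged in Ecpas (0.63), H2-K1 (0.046), Psma1 (-0.0047), Psmb1 (0.0036), Psmc2 (0.045), Psmd4 (-0.0087), Ubqln1 (0.1). With 1 array left out the exposure difference changed sign, over the range given, in B2m (-0.019 to 0.47), Psma1 (-0.049 to 0.22), Psma7 (-0.2 to 0.091), Psmb10 (-0.28 to 0.12), Psmb1 (-0.02 to 0.011), Psmb2 (-0.094 to 0.31), Psmb3 (-0.26 to 0.055), Psmb5 (-0.057 to 0.16), Psmb6 (-0.14 to 0.11), Psmb7 (-1.24 to 1.55), Psmb8 (-0.066 to 0.23), Psmb9 (-0.61 to 0.18), Psmc3ip (-0.044 to 0.17), Psmc5 (-0.2 to 0.019), Psmd10 (-0.0088 to 0.032), Psmd12 (-0.06 to 0.002), Psmd14 (-0.08 to 0.0043), Psmd2 (-0.34 to 0.3), Psmd4 (-0.15 to 0.19), Psmd5 (-0.11 to 0.24), Psmd6 (-0.036 to 0.28), Psmd7 (-0.2 to 0.42), Psme1 (-0.16 to 0.14), Psmg2 (-0.33 to 0.28), Uba6 (-0.68 to 0.23), Ubqln1 (-0.058 to 0.0048). The number difference changed sign with centred arrays in Ecpas (-0.096), Ngly1 (-0.089), Psma3 (-0.12), Psma8 (-0.13), Psmb1 (-0.13), Psmc2 (-0.15), Psmd14 (-0.13), Psme4 (-0.13), Ubqln1 (-0.13). The number difference changed sign with quantile normalization in Psma3 (-0.015), Psmc2 (-0.015), Psmd10 (0.0057), Ubqln1 (-0.027). The number difference changed sign when all probe sets were averaged in Keap1 (1.22), Psma3 (-0.64), Psmb3 (0.11). With 1 array left out the number difference changed sign, over the range given, in Ecpas (-0.082 to 0.2), Mafk (-0.18 to 0.12), Psma3 (-0.0073 to 0.073), Psmc2 (-0.027 to 0.041), Psmd10 (-0.03 to 0.014), Psmd12 (-0.052 to 0.027), Psmd14 (-0.018 to 0.075), Psme4 (-0.11 to 0.17), Uchl5 (-0.11 to 0.053). Centring moves every difference by one amount, which is why small ones changed sign; for the other changes the cause was not tested.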
